A study of Homo sapiens with 24 samples.

Results

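The regions described here are 2974 stretches of chromatin that ranked high in parental LNCaP cells given dihydrotestosterone (DHT) and did not in LNCaP cells given solvent or in the enzalutamide-resistant subline RES-A with or without DHT. They are 2.54% of the 117322 regions in the whole data set. In each library's peak list the 50000 peaks of highest pileup (the number of overlapping sequenced fragments at the summit) were kept, and kept peaks of all 24 lists that overlapped by at least 1 bp were merged into regions. A region was selected when at least 2 of 3 LNCaP DHT lists kept it, while none of the 3 LNCaP DMSO lists and none of the 6 RES-A DMSO and DHT lists did. They are called LNCaP DHT regions below, and "kept" means that a list had a peak there among its 50000 highest. The selection thus used the pileup ranks of 12 libraries, and values from those libraries are given as a description without a test.

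Accessibility was measured by FAIRE-seq, an assay that fixes cells with formaldehyde, fragments the chromatin and sequences the DNA left free of nucleosomes after phenol extraction. LNCaP is an established androgen-sensitive prostate cancer cell line, and RES-A was derived from it by passage in rising concentrations of enzalutamide (ENZ) over 9.5 months. Androgens were first withdrawn from both by 3 days in steroid-depleted (5% charcoal-stripped) serum, during which RES-A, unlike LNCaP, stayed on 10 µM ENZ. For the last 18 h each subline received DMSO (the solvent), 10 nM DHT, 10 µM ENZ or both agents (DHT+ENZ), with 3 libraries per group. RES-A cells given DMSO or DHT had therefore just been withdrawn from ENZ, and the LNCaP cells had not met it. DHT is the ligand of the androgen receptor, a nuclear receptor that binds DNA on activation, largely at distal enhancers where chromatin opens further as cofactors are recruited. ENZ competes with androgens for the receptor and hampers its entry into the nucleus and its binding to chromatin.

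The lists held 73254 to 275774 peaks. The genome-wide background was taken as the lowest expected pileup over a list's peaks, recovered from pileup and fold enrichment. It was used as a measure of relative depth and ran from 0.406 to 5.99. The pileup of the 50000th peak ran from 6 to 56. LNCaP ENZ replicate 1 (0.406) and LNCaP DHT replicate 1 (0.739) were the only libraries with a background under 1. With 82224 peaks in the latter, a pileup of 8 sufficed to be kept, against 45 and 40 in LNCaP DHT replicates 2 and 3.

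The name of these regions is one of rank and not of presence. A peak of lower rank was listed at 89.2%, 96.3% and 62.9% of them in the 3 LNCaP DMSO libraries, and 2693 of 2974 (90.6%) had one in at least 2 of these. In RES-A DHT libraries such a peak was listed at 64.8% ± 2.72 (SD, n = 3), and 1951 regions (65.6%) had one in at least 2 of 3. Only 34 regions had no peak of any rank in any of the 9 libraries that the rule required to lack a kept one. Most of the regions were thus already listed as weaker peaks in LNCaP without androgen. Their higher rank with DHT was set by the rule. In LNCaP DMSO their mean share was 82.8% ± 17.6 (SD, n = 3), close to the 82.3% ± 7.42 over all regions. In RES-A DHT the share over all regions was 82.5% ± 1.29, above the 64.8% here. The shares over all regions include kept peaks, which the rule barred at the selected regions.

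Within LNCaP DHT, 1061 regions (35.7%) were kept in all 3 libraries, 864 in replicates 2 and 3, 620 in replicates 1 and 2, and 429 in replicates 1 and 3. Mean fold enrichment over the LNCaP DHT peaks had a median of 5.21 and ran from 1.29 to 10.3, with 37 regions above 8 and 15 below 2. They were peaks of middling strength: the median rank of the kept peak was 30080, 36650 and 38160 in replicates 1, 2 and 3. Just inside the threshold, 21.9%, 38.4% and 43.4% of the kept peaks had a rank over 40000, against 20.0% of all kept peaks, and 229, 54 and 138 had exactly the pileup of the 50000th peak. Just outside it, 1772 further regions failed by 1 LNCaP DMSO list alone, 359 by 1 RES-A DHT list and 65 by 1 RES-A DMSO list. Of the selected regions, 910 (30.6%) had their best LNCaP DMSO peak between ranks 50000 and 60000, and 402 (13.5%) their best peak of the 6 RES-A DMSO and DHT lists.

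How far one library carried the selection was read by leaving it out of the rule and counting the regions it then kept. Regions chosen on the other 11 libraries were kept in the LNCaP DHT library left out at 55.1%, 71.2% and 63.1% for replicates 1, 2 and 3, a mean of 63.2% ± 8.05 (SD, n = 3). The LNCaP DMSO library left out kept 16.4% ± 4.97 of them, with 22.1% in replicate 2 as the highest value. The RES-A DHT library left out kept 3.86% ± 1.36 and the RES-A DMSO library 0.722% ± 0.388. The LNCaP DHT values did not overlap those of the other groups. The other 11 lists had chosen the regions by the same contrast, so this order is a description of selected regions. The sets also differed, with 1490 to 1925 regions for LNCaP DHT and 2983 to 3818 for the other groups. Over all regions of the data set, each of these groups kept 41.8% to 42.0% on average.

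The 12 libraries with ENZ took no part in the selection. In LNCaP DHT+ENZ the regions were kept at 23.1%, 15.2% and 16.6% in replicates 1, 2 and 3, a mean of 18.3% ± 4.18 (SD, n = 3). In LNCaP ENZ they were kept at 9.99%, 6.73% and 8.81%, a mean of 8.51% ± 1.65. All 3 libraries with DHT lay above all 3 without it, and an exact permutation test of 3 against 3 libraries cannot give a p below 0.1. In RES-A the regions were almost never kept, at 0.695% ± 0.337 with DHT+ENZ and 0.314% ± 0.136 with ENZ, so every RES-A library lay below every LNCaP library. With all deposited peaks in place of the first 50000 the RES-A shares were 4.43% with DHT+ENZ and 4.73% with ENZ, in the opposite order, and the LNCaP shares 18.2% and 10.4%. Over all 117322 regions each of these groups kept 41.8% to 42.0%, since each list was cut at the same number of peaks.

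**Figure D1:**
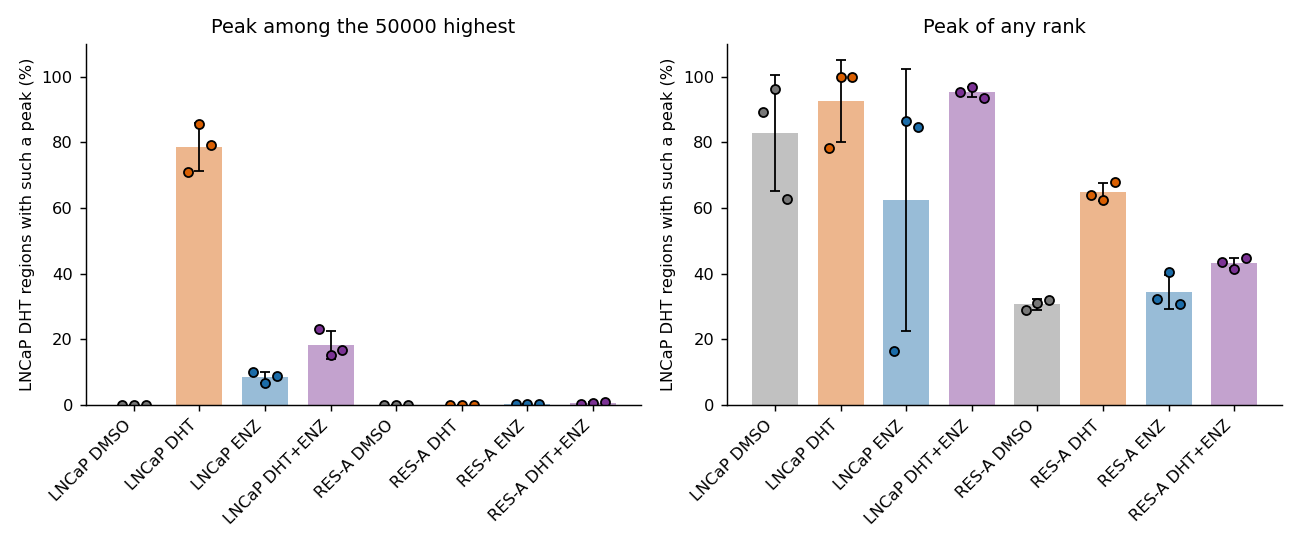
Share of the 2974 LNCaP DHT regions (y axis, percent) with a peak among the 50000 highest (left) or of any rank (right) in each library, by group (x axis). Bars are means, error bars SD and points the 3 libraries, replicate 1 to 3 from left to right. The kept shares of LNCaP DMSO, LNCaP DHT, RES-A DMSO and RES-A DHT were set by the selection, and among the others LNCaP DHT+ENZ (18.3%) lay above LNCaP ENZ (8.51%) and both above RES-A.

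For comparison, 1044 regions were chosen by the same ranks as gained with DHT in both sublines (at least 2 of 3 DHT lists and no DMSO list in each), and 2141 as gained in RES-A alone. With DHT+ENZ the shared regions were kept at 22.5% ± 8.31 in LNCaP and 26.0% ± 1.36 in RES-A. With ENZ alone they were kept at 6.83% ± 3.66 and 5.30% ± 0.864. The RES-A DHT regions mirrored the LNCaP DHT regions, with 22.9% ± 2.99 kept in RES-A DHT+ENZ, 10.1% ± 1.495 in RES-A ENZ, and 1.09% ± 0.668 and 1.95% ± 2.16 in LNCaP DHT+ENZ and ENZ. In both of these sets, the subline whose DHT lists had chosen the regions kept more of them with ENZ present. The rule had barred every region kept in the DMSO or DHT lists of the other subline, so this order is a description of selected regions.

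Regions kept in all 3 LNCaP DHT libraries were not kept more often in every other group. With DHT+ENZ the 1061 such regions were kept at 22.3% ± 9.03 and the 1913 others at 16.1% ± 1.74 in LNCaP. With ENZ alone the values were 6.82% ± 3.01 and 9.44% ± 1.13. Over the libraries the shares ran from 17.0% to 32.7% against 14.3% to 17.7% with DHT+ENZ. With ENZ alone they ran from 4.15% to 10.1% against 8.155% to 10.25%. Both sets were measured in the same libraries, so the SDs between libraries do not measure the difference, which was not tested. In RES-A the shares were 0.314% ± 0.237 and 0.906% ± 0.396 with DHT+ENZ, and 0.283% ± 0.0943 and 0.331% ± 0.263 with ENZ.

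At lower ranks the means of the groups with ENZ kept the same order, while single libraries overlapped. With the limit moved to rank 75000, LNCaP DHT+ENZ held a peak at 54.2% ± 4.90 of the regions, LNCaP DMSO at 33.9% ± 9.26 and LNCaP ENZ at 24.3% ± 7.02, although the rule had barred LNCaP DMSO from the first 50000 ranks. LNCaP ENZ replicate 1, whose list ended at 73254 peaks, was at 16.3%, and LNCaP ENZ replicates 2 and 3 were at 26.8% and 29.7%. The 16.3% lay below RES-A DHT replicates 1 and 2 (17.75% and 17.1%). In RES-A the shares were 16.3% ± 1.95 with DHT, 5.73% ± 1.63 with DHT+ENZ, 4.51% ± 0.135 with ENZ and 4.29% ± 0.496 with DMSO. RES-A DHT+ENZ replicate 1 (4.472%) lay below RES-A ENZ replicates 1 and 3 (4.506% and 4.64%). Over all regions the same limit gave 59.3% in LNCaP DHT+ENZ, 58.7% in LNCaP DMSO, 54.85% in LNCaP ENZ and 58.4% to 59.0% in the RES-A groups. The means at the selected regions all lay below these. The shares over all regions include kept peaks, which the rule barred in LNCaP DMSO, RES-A DMSO and RES-A DHT. The regions' median rank was 66010, 72300 and 72110 in the LNCaP DHT+ENZ libraries and 81940, 79550 and 81500 in the LNCaP DMSO libraries. In LNCaP ENZ it was 43750, 92020 and 89150, with the first taken over only the 486 regions that replicate 1 listed. It was 93980, 94770 and 100900 in RES-A DHT and 115500, 117200 and 122600 in RES-A DMSO, taken over regions with a peak in the library.

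**Figure D2:**
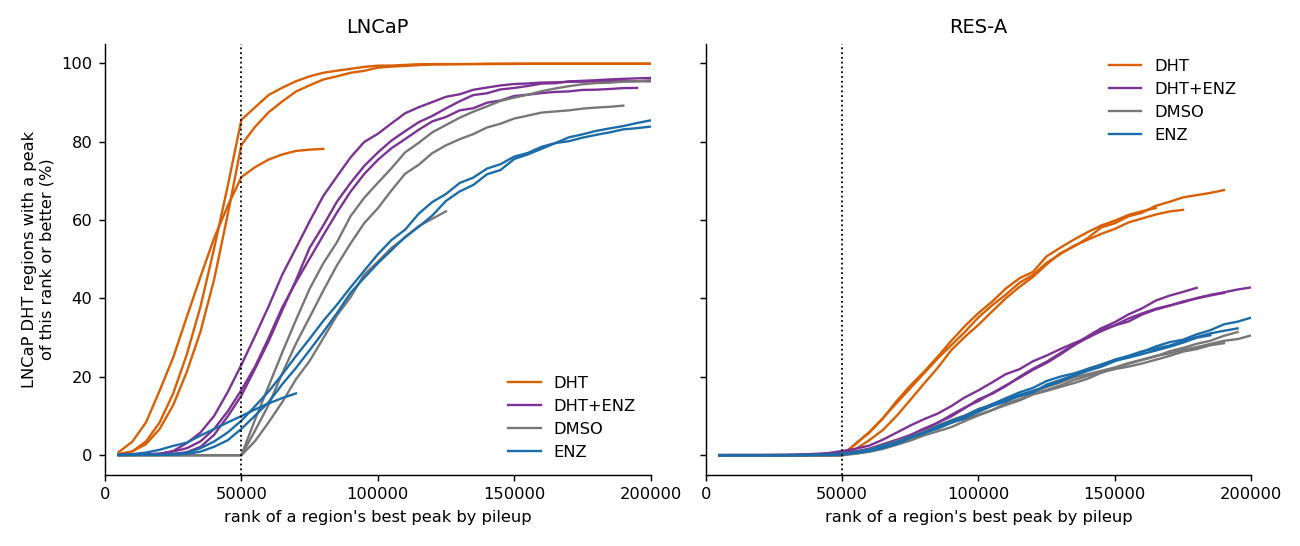
Share of the LNCaP DHT regions (y axis, percent) whose best peak had the rank on the x axis (by pileup) or better, with 1 line per library, in LNCaP (left) and RES-A (right). The dotted line is the limit of 50000 used to keep peaks, and lines end where a list ends. At rank 75000 the LNCaP DHT+ENZ libraries held 54.2% on average and the RES-A DHT libraries 16.3%, above the other RES-A groups. Over all regions of the data set these groups held 59.3% and 58.7%.

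The unkept peaks in RES-A moved with DHT. All 3 RES-A DHT libraries had a peak and all 3 RES-A DMSO libraries had none at 567 regions (19.1%), against 3.31% of the 45499 regions of the whole set that no RES-A DMSO or DHT list kept. The reverse held at 4 regions (0.134%), against 1.35% of that background. These counts come from libraries that the rule used, although it treated DHT and DMSO alike in RES-A, and they are a description. Of these 4, chr11:112328998-112329556 and chr12:49656619-49656847 (hg19) lay on placed chromosomes other than 8. With at least 2 libraries in place of 3, the counts were 841 (28.3%) against 5.59% of the background, and 15 (0.504%) against 3.54%.

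In the RES-A libraries with ENZ, which the rule did not use, the same count gave 58 regions (1.95%) with a peak in all 3 DHT+ENZ libraries and none in ENZ, against 0.481% of the background. The reverse was found at 4 regions (0.134%), against 0.497%. These were chr10:112719554-112719881, chr14:81865178-81865479, chr2:17666755-17667338 and chr21:11095645-11096199, named after their values were seen. A peak of any rank was present at 43.2% ± 1.60 of the regions in RES-A DHT+ENZ, 34.5% ± 5.22 in RES-A ENZ and 30.7% ± 1.63 in RES-A DMSO. All 3 DHT+ENZ libraries lay above all 3 ENZ libraries. Over the background regions the 4 RES-A groups differed little, from 57.1% with DHT to 59.8% with ENZ.

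Summits of unkept peaks in RES-A were compared with those in LNCaP DHT, within the length of the region, which bounds their distance. The summit in RES-A DHT libraries lay a median of 31.0 to 32.5 bp from the LNCaP DHT summit, with 90.1% to 90.7% within 100 bp. Within 100 bp lay 80.6% to 83.6% in RES-A DMSO, 81.9% to 84.4% in RES-A ENZ and 84.1% to 88.8% in RES-A DHT+ENZ. Between the LNCaP DHT libraries themselves the median distance was 28.0 to 38.0 bp. The regions had a median length of 445 bp, against 432 bp for all regions, 504 bp for the shared DHT regions and 394 bp for the RES-A DHT regions. At the other extreme, 485 regions (16.3%) had no peak of any rank in the 12 RES-A libraries and 418 had one in all 12.

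Which of the LNCaP DHT regions remained high when ENZ was given with DHT was read from the number of lists. At least 1 of the 6 LNCaP lists with ENZ kept 1337 regions (44.96%), a smaller share than the 82541 of all 117322 regions. No list with ENZ of either subline kept 1625 regions (54.6%). At least 1 of the 6 RES-A lists with ENZ kept 74 regions (2.49%). All 3 DHT+ENZ lists kept 96 regions and all 3 ENZ lists 21. For the counts of 1625, 74, 96 and 21 the number over all regions is not given here. Among the 1337 regions, 880 (65.8%) were kept in more DHT+ENZ than ENZ lists, 257 (19.2%) in fewer and 200 in as many. Over the 82541 regions of the whole set with a kept peak in these 6 lists, the shares were 29.6% and 32.0%. For the regions gained with DHT in both sublines they were 74.6% and 14.0%, so this order was not particular to the LNCaP DHT regions. For the RES-A DHT regions they were 28.5% and 62.4%.

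The strictest form of this contrast was being kept in all 3 DHT+ENZ lists and no ENZ list of LNCaP. It was met by 37 of the 1337 regions (2.77%), against 1.08% of all regions with a kept peak in these 6 lists. Of the shared DHT regions with such a peak, 34 of 515 (6.60%) met it, a higher share, and of the RES-A DHT regions 0 of 165. The reverse was met by 5 regions (0.374%), against 0.366%, which is close to the background. The count of 37 moved by over 1.5 times with single libraries. It was 21 and 22 without LNCaP DHT replicates 2 and 3, 80, 118 and 93 without DHT+ENZ replicates 1, 2 and 3, 59 and 107 without LNCaP DMSO replicates 1 and 2, and 58 without LNCaP ENZ replicate 3. The reverse count of 5 ran from 2 to 17 as each library was left out. It was 2, 3 and 2 without LNCaP DHT replicates 1, 2 and 3, 8 without DHT+ENZ replicate 3 or LNCaP DMSO replicate 2, and 16, 17 and 11 without LNCaP ENZ replicates 1, 2 and 3.

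**Figure D3:**
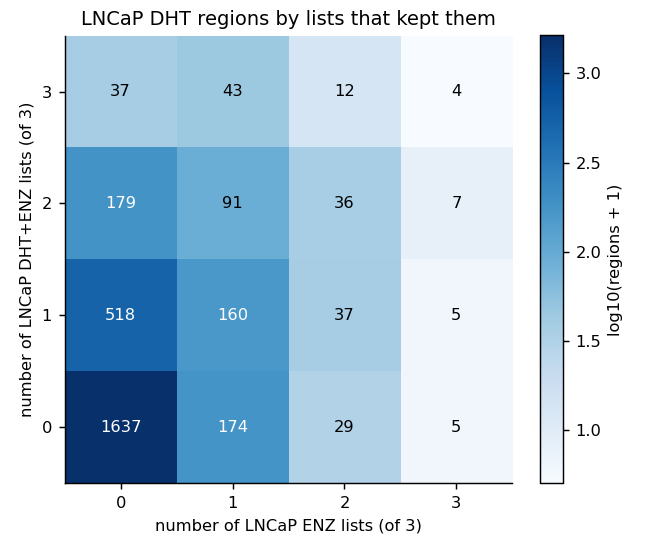
Number of LNCaP DHT regions by how many of the 3 LNCaP ENZ lists (x axis) and of the 3 LNCaP DHT+ENZ lists (y axis) kept them, with colour as log10 of the number plus 1. Counts above the diagonal outnumbered those below it, with 37 regions in the upper left cell and 5 in the lower right.

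The sublines were compared region by region in the 6 LNCaP against the 6 RES-A libraries with ENZ, by a two-sided Fisher's exact test with Benjamini-Hochberg adjustment over the 40274 regions kept in 3 to 9 of these 12 libraries. Of the LNCaP DHT regions, 296 could be tested and 21 (7.095%) passed an adjusted p of 0.05, all kept more often in LNCaP. Over all regions tested, 5736 (14.2%) passed with LNCaP higher and 8227 with RES-A higher. The share of LNCaP DHT regions that passed with LNCaP higher was thus lower than that of regions in general. The selection had barred regions kept in LNCaP DMSO, RES-A DMSO or RES-A DHT, so this direction and share are a description of selected regions. The 21 comprised 4 regions kept in 6 LNCaP and 0 RES-A libraries (adjusted p = 0.0127, Fisher's exact test) and 17 kept in 5 and 0 (adjusted p = 0.0437). A further 71 regions were kept in 4 and 0, which did not pass the threshold (adjusted p = 0.122, Fisher's exact test), and 155 in 3 and 0. Of all 40274 regions tested, 2122 were kept in 6 and 0, 3118 in 5 and 0, 2577 in 4 and 0 and 3072 in 3 and 0.

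The count of 21 was set by which libraries entered. Without LNCaP DHT replicates 2 and 3 it was 7 and 10, and without LNCaP DMSO replicates 1, 2 and 3 it was 59, 136 and 54. It was 66, 52 and 45 without LNCaP ENZ replicates 1, 2 and 3, and 39 and 38 without LNCaP DHT+ENZ replicates 1 and 3. Over all regions the count with LNCaP higher was 5732 to 5742 without one of the LNCaP DHT or DMSO libraries, 6186 to 8114 without one of the LNCaP libraries with ENZ, and 5736 with all libraries. With peaks ranked by −log10 p in place of pileup, 3 LNCaP DHT regions passed, and 1576 of all regions.

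Single regions showed the different forms these values took. Positions are in hg19, and fold enrichment is the linear ratio over expected pileup given by the authors' peak caller, which is not scaled between libraries. The median fold of kept peaks was 5.58 to 7.055 in LNCaP DHT, 6.77 to 8.61 in LNCaP DMSO and 8.82 to 9.20 in RES-A DHT. Folds of different groups are therefore not on 1 scale and are given as a description. The 6 regions of highest mean fold in LNCaP DHT, outside chromosome 8 and kept in all 3 libraries, were picked after the values were seen. The first, chr15:28348146-28348651, had fold 10.9, 11.1 and 9.02 in LNCaP DHT replicates 1 to 3 and 5.87, 5.83 and 5.42 in LNCaP DMSO. It was at 13.5, 6.26 and 6.26 in LNCaP DHT+ENZ, kept in replicate 1 alone. RES-A DHT listed it at 6.02, 4.62 and 4.09 with ranks of 92824, 119714 and 135696, and no RES-A DMSO library listed it. In RES-A it was thus listed with DHT and not with DMSO, far down the list. Its high LNCaP DHT fold was set by the choice of the region.

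The same form recurred at chr16:16036719-16037105, with fold 8.66, 11.6 and 9.67 in LNCaP DHT and 6.53, 6.04 and 6.26 in RES-A DHT. Its LNCaP DMSO values were 5.24, 4.28 and 5.85, and none of the 9 other RES-A libraries listed it. At chr3:194864009-194864637 LNCaP DHT had 8.05, 12.03 and 9.78 and RES-A DHT 8.02, 6.04 and 7.22, again with no peak in the other RES-A groups. None of the 6 regions had a peak in RES-A DMSO, and 5 of them, including chr10:50415265-50415727 and chr17:16371248-16372168, had one in all 3 RES-A DHT libraries. The exception was chr1:156259671-156260139, at fold 9.11, 10.7 and 8.54 in LNCaP DHT and listed in RES-A DHT replicate 2 alone, at 4.98.

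Only 2 regions outside chromosome 8 were kept in all 3 LNCaP DHT libraries and had no peak of any rank in LNCaP DMSO, RES-A DMSO or RES-A DHT. At chr7:108638969-108639507 fold was 3.60, 3.96 and 3.24 in LNCaP DHT and 2.94, 3.38 and 2.53 in LNCaP DHT+ENZ, where ranks of 71764, 52162 and 79592 left it unkept. No LNCaP ENZ library and no RES-A library listed it. At chr21:22748677-22749281 fold was 3.48, 3.07 and 1.90 in LNCaP DHT, and LNCaP DHT+ENZ replicates 2 and 3 kept it at 1.83 and 2.07. All libraries that listed either region had been given DHT, and their folds were lower than the median of 5.21 over the LNCaP DHT regions.

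Other regions were kept in most LNCaP libraries with ENZ, with or without DHT. Among the 3 named for this, chr10:79382531-79383216 was kept in all 6 LNCaP libraries with ENZ, with fold 6.28, 8.37 and 7.42 in ENZ and 6.81, 6.60 and 6.89 in DHT+ENZ. Its LNCaP DMSO peaks lay just outside the limit, at ranks 56357, 54439 and 52147, with fold 6.87, 8.15 and 6.28, and all 12 RES-A libraries listed it unkept. At chr2:163146821-163147253, also kept in all 6, fold was 4.41, 5.64 and 3.95 in LNCaP DMSO and 4.53, 4.13 and 4.47 in LNCaP DHT. In both regions the LNCaP DMSO and DHT folds overlapped. The third, chr21:32105295-32105699, was kept in 5 of 6, and the 2 remaining regions kept in all 6 were chr3:154447923-154448372 and chr5:79362435-79363193.

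A few regions were kept in RES-A once ENZ was present. The most, 4 of 6 RES-A libraries, was at chr3:172179357-172179792, where fold was 9.47, 7.46 and 9.69 in RES-A ENZ and 5.97, 7.82 and 8.71 in RES-A DHT+ENZ. RES-A DMSO had 8.20, 6.79 and 7.85 there, overlapping both. It was followed by chr17:39478654-39478972 and chr10:23819003-23819374, each kept in 1 library of RES-A ENZ and 1 of RES-A DHT+ENZ, and each with a peak in all 12 RES-A libraries. At least 2 RES-A ENZ libraries kept 3 regions (besides the first, chr12:22784812-22785134 and chrX:121160499-121161008). At least 2 RES-A DHT+ENZ libraries also kept 3 (besides the first, chr4:49659000-49659311 and chrY:58851006-58851306).

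The regions nearest to being kept in RES-A DHT showed how narrow the limit was. At chr6:146694716-146695118 RES-A DHT peaks had ranks of 68006, 50021 and 53338 and fold 6.10, 6.95 and 7.63. The LNCaP DHT libraries that kept it had 6.21 and 5.92, at ranks 44584 and 40772. RES-A DMSO listed it at 3.18 and 3.22 in replicates 1 and 2, and no RES-A ENZ library did. At chr20:21259466-21259955 fold was 5.88, 9.20 and 5.29 in RES-A DHT, with no peak in RES-A DMSO or ENZ and 5.34, 3.16 and 3.78 in RES-A DHT+ENZ. At chr1:173240056-173240435 it was 5.91, 4.89 and 4.95 in RES-A DHT and 3.04, 2.69 and 3.70 in RES-A DMSO. These regions were named for their RES-A DHT rank, so their high RES-A DHT values are a description.

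The contrast between DHT+ENZ and ENZ in LNCaP is shown by regions chosen for it after the values were seen. At chr9:6143979-6144705 fold was 6.69, 7.02 and 6.43 in LNCaP DHT+ENZ, all kept, and 3.98, 6.58 and 5.62 in LNCaP ENZ, all unkept. At chr5:75526772-75527296 it was 5.36, 5.19 and 4.63 with DHT+ENZ and 4.44 and 4.31 in the ENZ libraries that listed it, and at chr20:3898791-3899202 7.20, 5.64 and 5.55 against 4.10 and 4.93. The folds overlapped at the first, where 6.43 in DHT+ENZ lay below 6.58 in ENZ, and not at the others. The 5 regions of the reverse pattern were chr15:84843024-84843683, chrX:11917337-11917814, chr13:37464265-37464918, chr3:180499962-180500400 and chr13:77679870-77680250. At the first of these, LNCaP ENZ had 6.33, 8.56 and 6.58, LNCaP DHT+ENZ 5.86, 6.46 and 5.21 and LNCaP DMSO 6.41, 7.96 and 4.88.

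**Figure D4:**
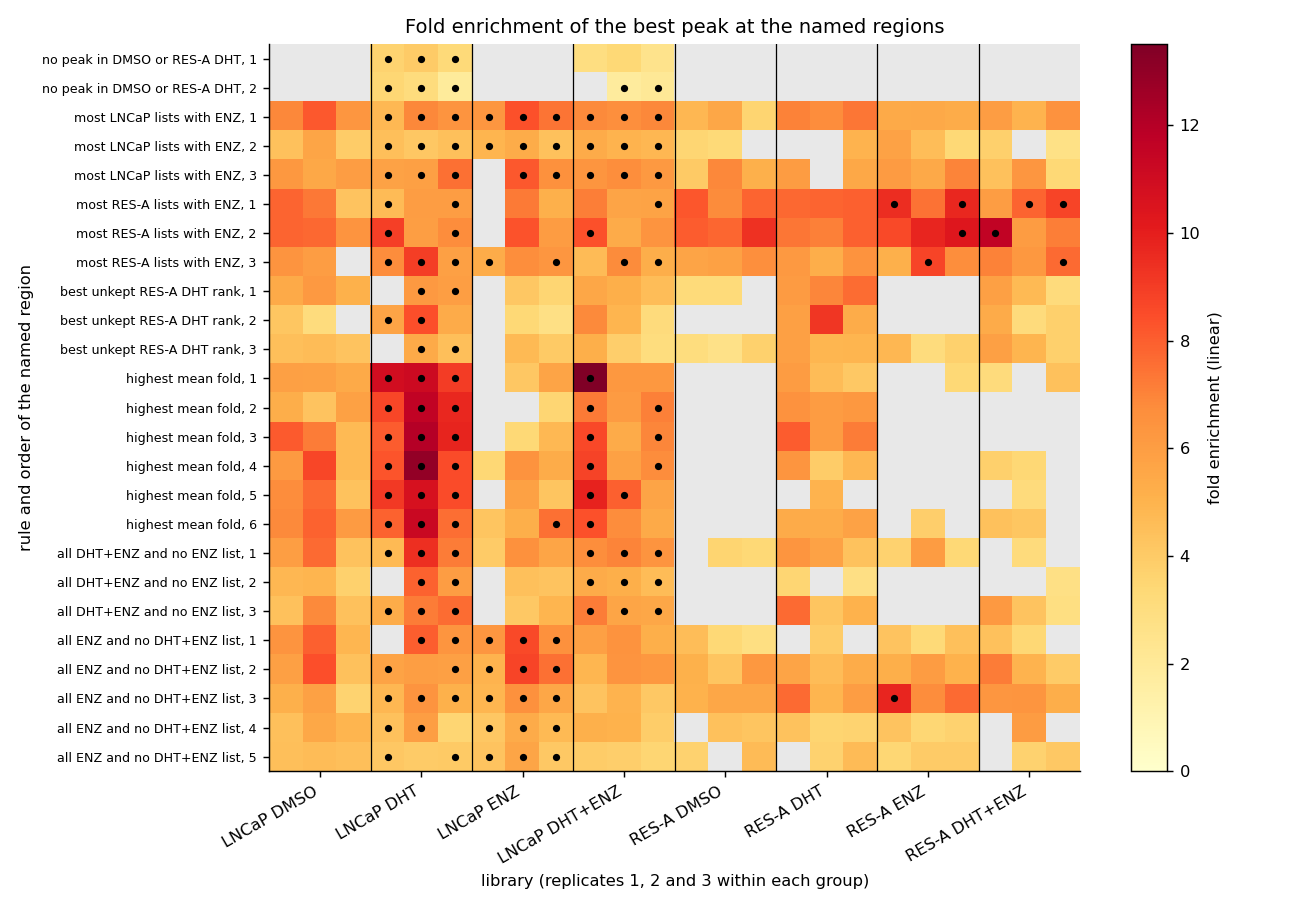
Fold enrichment (colour, linear scale) of the best peak in each of the 24 libraries (x axis, replicates 1 to 3 in each group) at the named regions (y axis, by the rule that named them and their order). Grey marks no peak of any rank and black dots a peak among the 50000 highest. The 6 regions of highest mean fold had no peak in RES-A DMSO, and 5 of them had one in all 3 RES-A DHT libraries.

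The regions were spread over every chromosome, unevenly. Per 100 regions of the whole set there were 0.597 on chromosome 19 (14 regions), 1.45 on chromosome 6 (94) and 1.77 on chromosome 1 (219). There were 3.45 on chromosome 4 (240), 3.60 on chromosome 8 (212) and 3.61 on chromosome 15 (129). The RES-A DHT regions had 4.16 per 100 on chromosome 6, 2.76 on chromosome 1, 1.16 on chromosome 4, 1.24 on chromosome 8 and 1.09 on chromosome 15. They were thus denser on chromosomes 6 and 1 than on 4, 8 and 15, the reverse of the LNCaP DHT regions. Per 100 regions they were also fewest on chromosome 19, at 0.724. In 17 unplaced scaffolds lay 31 regions. The nearest other LNCaP DHT region was a median of 234 kb away, and 871 of the 2943 on placed chromosomes (29.6%) had one within 100 kb. These formed 378 clusters, of which 296 were pairs. The largest held 6 regions each, at chr4:95680854-96015477, where 4 of the 6 were kept in all 3 LNCaP DHT libraries, and at chr1:79322579-79716784, where 1 was. These spans held 29 and 23 regions of the whole set. Of the RES-A DHT regions on placed chromosomes, 27.25% had another of their set within 100 kb, at a median distance of 284 kb.

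This distribution went with how many peaks the sublines held in each stretch of genome. In 309 windows of 10 Mb, the share of all other kept peaks in LNCaP libraries with ENZ was divided by that in RES-A libraries with ENZ. Across windows, log2 of this ratio and the number of LNCaP DHT regions per 100 regions had a Pearson r of 0.675 and a Spearman rho of 0.669, and for the RES-A DHT regions they were -0.621 and -0.616. Windows are not independent replicates and share the same libraries, so these are descriptions. In the 81 windows where the LNCaP share was over 1.25 times the RES-A share there were 1077 regions, 3.99 per 100. There were 2.37 per 100 in the 172 balanced windows and 1.25 per 100 in the 56 windows where the RES-A share was over 1.25 times the LNCaP share. The window with the most was chr10:50000001-60000000 with 28, followed by chr4:90000001-100000000, chr5:50000001-60000000 and chr7:10000001-20000000 with 26 each. Per 100 regions the highest was chr3:80000001-90000000, at 7.04. DNA copy number was not measured in these files, and its part in the distribution was not tested.

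The 1580 regions of balanced windows were kept at 17.6% ± 3.76 in LNCaP DHT+ENZ, 8.44% ± 1.24 in LNCaP ENZ, 0.907% ± 0.371 in RES-A DHT+ENZ and 0.485% ± 0.159 in RES-A ENZ (SD, n = 3), the last above the 0.314% over all 2974 regions. In windows with more LNCaP peaks the RES-A shares were lower, at 0.279% ± 0.246 with DHT+ENZ and 0.0310% ± 0.0536 with ENZ. In windows with more RES-A peaks they were 0.822% ± 0.538 and 0.117% ± 0.203. A peak of any rank in RES-A DHT was present at 57.0% ± 2.39 of the regions in windows with more LNCaP peaks, 69.0% ± 3.30 in balanced windows and 73.9% ± 0.352 in windows with more RES-A peaks. In RES-A DMSO these shares were 27.0%, 32.4% and 33.0%. In each of the 3 kinds of window the LNCaP shares with ENZ lay above the RES-A shares, and RES-A DHT above RES-A DMSO.

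**Figure D5:**
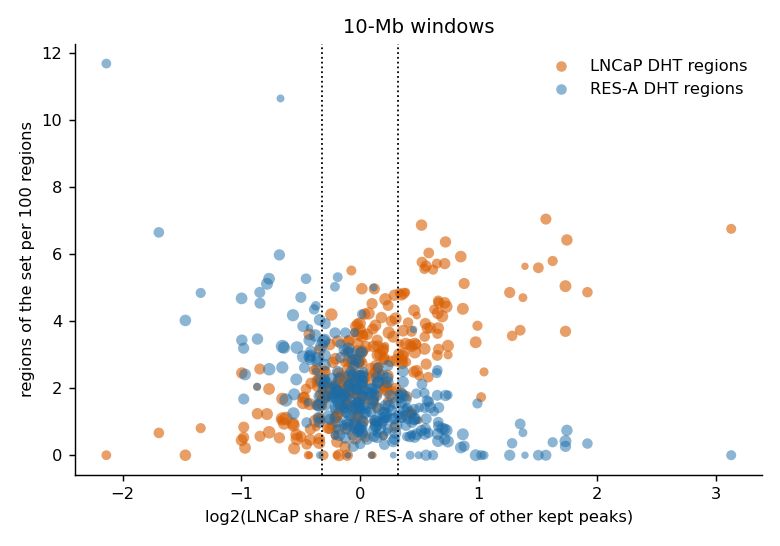
Number of LNCaP DHT regions (orange) and RES-A DHT regions (blue) per 100 regions (y axis) in 309 windows of 10 Mb, against log2 of the LNCaP over RES-A share of all other kept peaks in the libraries with ENZ (x axis). Point area grows with the number of regions in the window, and dotted lines mark ratios of 1.25 either way. LNCaP DHT regions were denser to the right (3.99 per 100) than to the left (1.25 per 100).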

How the data were processed

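FAIRE-seq of parental LNCaP and RES-A cells comprised 24 libraries, 3 biological replicates for each of 8 groups, taken from the sample labels. The authors aligned 50-bp single-end reads to hg19 with bwa 0.7.8-r455, marked duplicates with Picard 1.118 and called peaks per library with MACS2 2.1.0, with options not given in the sources used here. The deposited lists give each peak's pileup (a signal of overlapping fragments, not scaled between libraries), a fold enrichment, and −log10 of p and q values. All listed peaks had a q of at most 0.05.

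Peaks were ranked within a list by pileup, with ties broken by length and position, the first 50000 were kept, and kept peaks were merged in Python 3.11.15 with pandas 2.3.3, numpy 2.4.6 and scipy 1.17.1. Background was the lowest value of (pileup + 1) / fold − 1 over the peaks of a list, which assumes that the peak caller added 1. The regions and comparison sets were chosen with earlier results of these data known. Regions named were, outside chromosome 8, those with no peak in LNCaP DMSO, RES-A DMSO and RES-A DHT (up to 6, of which 2 existed), and 3 each kept in most LNCaP lists with ENZ, kept in most RES-A lists with ENZ and of best unkept RES-A DHT rank, with others named as chosen after seeing values. Alternatives were another ranking, 25000 or all peaks, a q of 0.01, autosomes only, an overlap of 100 bp, a replicate block, a test of ranks and leaving out each library. The merging and the test were tested on simulated data. The reference at hand was GRCh38, and for 15 of 24 chromosomes the outermost peak lay beyond its end, so genes and sequences at the regions were not analysed here. Depth as read totals was not used here.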

Additional observations from a re-analysis of the deposited data

How the results depend on the processing

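The number of LNCaP DHT regions was 1981 with 25000 peaks per list, 6205 with all deposited peaks, 1061 when kept in all 3 LNCaP DHT lists, 1925 without the libraries of background under 1 and 1580 in balanced windows (the last 2 alternatives were chosen after seeing the data), and ran from 1489 to 3822 as each library was left out in turn. In every alternative the share kept in LNCaP DHT+ENZ was above that in LNCaP ENZ and both above RES-A. The LNCaP ENZ share was 10.4% with all deposited peaks and 6.82% when kept in all 3 DHT lists, and ran from 7.11% to 14.2% over single libraries left out. The LNCaP DHT+ENZ share ran from 15.9% to 26.8%. The RES-A ENZ share was 4.73% with all deposited peaks and 0.485% in balanced windows (0.252% to 0.504% over libraries left out). The RES-A DHT+ENZ share was 4.43% with all peaks and 0.314% when kept in all 3 (0.376% to 1.16% over libraries left out).

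The 21 regions past Fisher's exact test became 3 when ranked by −log10 p (1576 of all regions, from 5736), 0 with all deposited peaks (22 with an unadjusted p under 0.05, and 1269 of all regions past the adjusted threshold), 49 without the libraries of background under 1, 10 in balanced windows, 4 when every region kept in at least 1 library was tested, and 144 by exact permutation of ranks capped at 70000, and ran from 7 to 136 over libraries left out. Deviations of same-numbered libraries correlated between -0.0179 and 0.116. The highest were LNCaP ENZ with LNCaP DHT+ENZ in replicates 1 and 2 (0.116 and 0.106), against 0.0063 in replicate 3. Libraries of different number were not compared, so whether replicate numbers pair the libraries was not tested. With the replicate block (exact McNemar test over 6 pairs) 0 regions passed, since the smallest p was 0.0312 and the smallest adjusted p 0.18, and 4 had an unadjusted p under 0.05. The counts of 37 regions kept with DHT+ENZ alone and 5 with ENZ alone were 259 and 39 under the replicate block rule of at least 2 of 3 pairs, which 4860 and 2921 of all regions met, and 19 and 3 in balanced windows. The first ran from 21 to 118 and the second from 2 to 17 over libraries left out. The second was 3 when ranked by −log10 p and 1 with 25000 or all peaks.

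The share with a peak of any rank was 68.1% in RES-A DHT when ranked by −log10 p. It was 83.6% in RES-A DHT and 50.7% in RES-A DMSO with 25000 peaks, and 69.0% and 32.4% in balanced windows. The RES-A DMSO share was 27.0% without the libraries of background under 1. Over libraries left out the shares ran from 64.0% to 68.3% and from 25.4% to 36.4%. With all deposited peaks these shares are 0 by construction and were not computed. Causes of these shifts were not tested. Whether the absence of a peak in a shallow library reflects depth was not tested.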
